A study of Macaca mulatta with 6 samples.

Results

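The genes described here encode postsynaptic scaffolds and the adhesion proteins that join the membranes of a synapse. They were 48 genes listed by name, and 42 of them matched a row of the deposited table through its rhesus gene identifiers. All 42 had a mean of 10 or more normalized counts over the 6 libraries and were tested, among 16595 such genes of 23191 in the table. No row was matched to DLGAP2, NLGN2, LRRTM2, LRFN1, SLITRK1 or SLITRK4, which were not analysed here. Normalized counts are reads divided by a size factor for each library, so that values of 1 gene can be compared between libraries but not between genes of different length.

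Polyadenylated RNA was sequenced in 3 libraries from the morphine group and 3 from the saline group, all labelled as purified adult cortical neurons. The animals were male rhesus monkeys, Macaca mulatta, of 3 to 4 years and 3.0 to 5.0 kg. The morphine group received subcutaneous injections over 90 days, 3 daily, at a dose of 3 mg/kg in the first week, with weekly steps to 6, 9 and 12 mg/kg, then 15 mg/kg from day 29 on. The saline group received saline of 0.9% on that schedule, in a matched volume (0.5 mL/kg). The protocol names 4 monkeys, 2 in each group, for 3 libraries a group, and the description labels carry 1 code for each group, so at least 2 libraries of a group share an animal and all 3 may. The p-values below therefore measure the spread between these libraries, and treatment and differences between animals cannot be told apart. The study asked how chromatin folding changes after long exposure to morphine, an opioid that acts mainly on the mu receptor, and these libraries measured expression.

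At an excitatory synapse, membrane-associated scaffold proteins of the PSD-95 family hold receptors in place, and SAPAP, SHANK and HOMER proteins link them in layers to the actin skeleton. Gephyrin is the corresponding scaffold of inhibitory synapses. Across the cleft, presynaptic neurexins and receptor phosphatases of the LAR group bind postsynaptic partners (neuroligins, LRRTM, LRFN, SLITRK and IL1RAPL proteins) directly or through secreted linkers such as cerebellins, and the combination of partners helps to set what kind of synapse forms.

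Of the 42 genes, 3 rose with morphine (PTPRS, CNTNAP1 and NPTX1) and 7 fell (CBLN4, NLGN1, DLG1, ADGRL3, CNTNAP4, PTPRD and ADGRL2), at an adjusted p under 0.05 in limma, a linear model fitted to log2(normalized count + 1) over all genes. Those 10 are 23.8% of the members, against 27.9% of all 16595 genes tested (12.9% rose and 15.0% fell). The share called among the members was thus near the background, and the values below describe single genes rather than a response of the group. The median absolute log2 fold change was 0.18 among the members and 0.26 over all genes tested, and 2 of the called members changed by over 1.5 fold. The median log2 fold change was -0.01 among the members and 0.01 over all genes. Among the 13 scaffold genes 1 fell and 0 rose (1 higher and 4 lower at an unadjusted limma p under 0.05), and among the 29 adhesion genes 3 rose and 6 fell. The difference between these counts was not tested. The share of all genes at an unadjusted p under 0.05 was not counted. It is at least the 27.9% called after adjustment, so unadjusted counts, here and for the families below, are no result about the members.

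**Figure D1:**
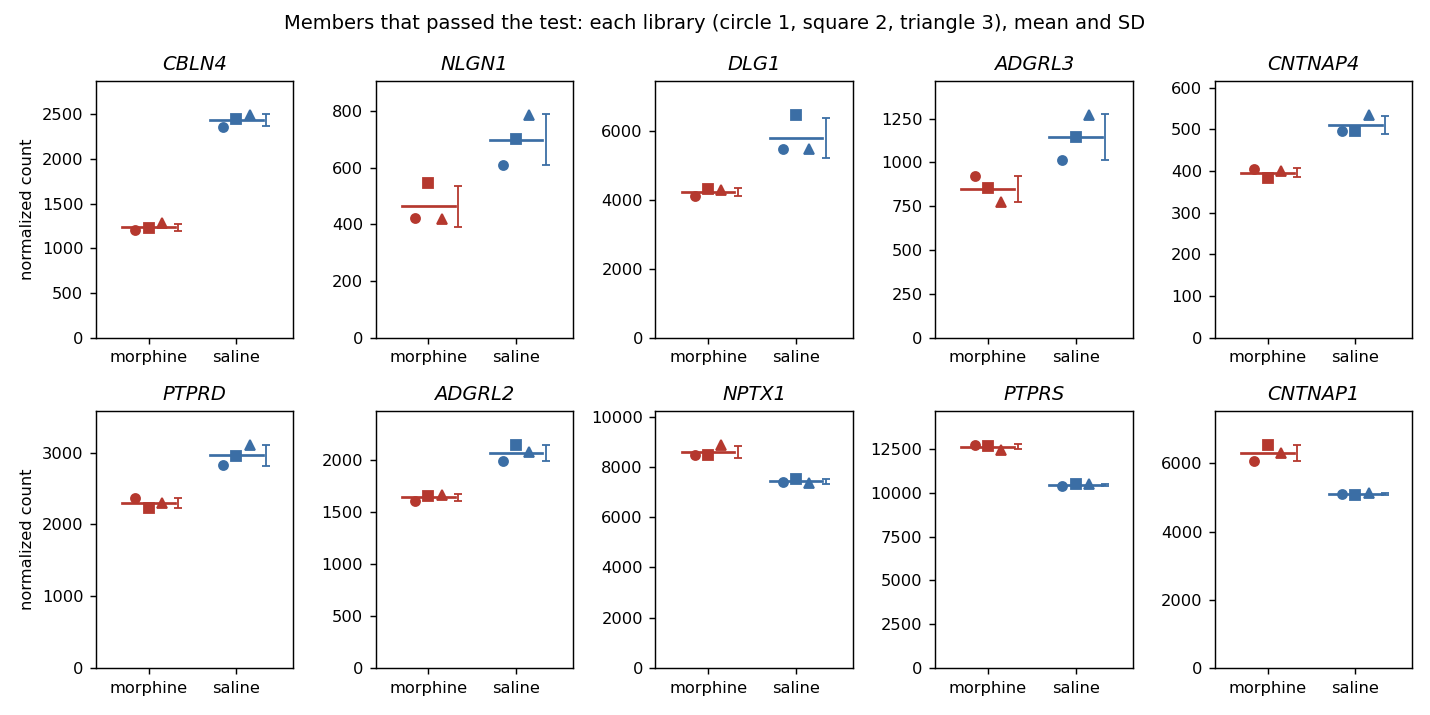
Normalized counts (y axes, from 0) of the 10 members that passed the limma test, in order of their log2 fold change, in the 3 morphine (red, left) and 3 saline (blue, right) libraries; marks are libraries 1 to 3, horizontal lines are means and bars at the side are SD. The groups do not overlap in any panel, but the genes were picked by a test on these same values. Over all genes tested, 48.7% have groups that do not overlap. CBLN4 has the widest separation relative to its level, with 1203 to 1279.8 in morphine and 2360.3 to 2497 in saline libraries.

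More members passed in tests on reads. In edgeR's quasi-likelihood test on reads recovered from the table, 8 members rose and 9 fell (40.5%), against 34.0% of all genes (16.3% rose and 17.7% fell). The 10 genes above were called in the same direction there, and DLGAP4, LRRTM1, CADM3, NPTXR and ADGRL1 rose and DLG2 and DLGAP3 fell in addition. DESeq2 on these reads called 9 rises and 9 falls, against 36.8% of all genes (18.0% rose and 18.8% fell). The authors' deposited table likewise has 9 rises and 9 falls, against 34.1% of all genes (16.4% rose and 17.7% fell). With an intensity trend in limma there were 8 rises and 9 falls, against 34.4% of all genes (16.5% and 17.9%), and with a minimum mean of 50 there were 4 rises and 9 falls, against 35.8% (16.5% and 19.3%). In limma 6 members passed whichever library was left out: PTPRS and CNTNAP1 rose, against 5.19% of all genes, and CBLN4, CNTNAP4, PTPRD and ADGRL2 fell, against 6.97%. In 24 of the 42 genes (57.1%) the 3 values of a group all lay on 1 side of the 3 of the other, 10 with morphine above and 14 with morphine below, against 48.7% of all genes (24.1% above and 24.6% below). Most members had high counts. Of the 16 with a mean over 5000 normalized counts 4 were called, against 42.0% of all genes at that level, of the 14 between 1000 and 5000 there were 3, against 37.3%, and of the 11 between 200 and 1000 there were 3, against 27.1%.

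**Figure D2:**
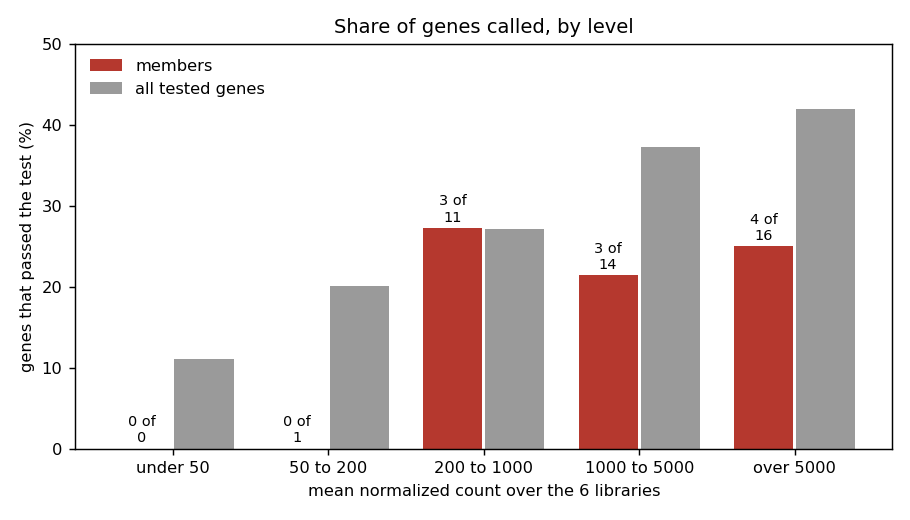
Share of genes that passed the limma test (y axis, percent) among the members (red) and among all tested genes (grey), in bands of the mean normalized count over the 6 libraries (x axis); the labels give called and tested members. The grey bars rise with level to 42.0%, and the red bars of the 2 most abundant bands stand below the grey ones.

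Recovered reads were between 31238653 and 36345095 per library. All 14 pan-neuronal markers were measured, and none was at 0, but glial transcripts were abundant too: the myelin gene MBP had 202716 ± 883 normalized counts with morphine and 192902 ± 3182 with saline (SD, n = 3 each), and the astrocyte gene SLC1A3 had 82479.5 ± 483 in morphine against 123564 ± 2137 in saline libraries. Cell type markers differed between the groups as follows. Summed over the 11 measured of 13 astrocyte markers, libraries had 351713 to 357070 normalized counts in morphine, against 420753 to 429106 in saline, with 6 markers lower and 1 higher in limma. The 7 measured of 12 microglia markers summed to 7758 to 8315, against 5342 to 5681 in saline, with 4 higher and 2 lower. Oligodendrocyte markers (8 of 10) summed to 266512 to 268830 with morphine against 260599 to 265163 with saline (3 higher and 3 lower), precursor markers (6 of 8) to 23654 to 24312 with morphine against 19520.5 to 19701 with saline (4 higher), and vascular markers (10 of 12) to 11077 to 11464 with morphine against 12655 to 12863 with saline (3 higher and 4 lower). The 3 vascular markers that rose, named after their values had been seen, went against their list's sum: the collagen genes COL1A1 and COL1A2 had 201 ± 17.1 and 668 ± 16.5 normalized counts in morphine libraries, against 16.5 ± 2.92 and 133 ± 24.7 in saline libraries, and the smooth muscle actin ACTA2 had 1050.2 ± 33.1 in morphine, against 612 ± 14.7 in saline (SD, n = 3 each). The pan-neuronal sum was 251547 to 255394 in morphine libraries, against 304136 to 314869 in saline libraries, with 7 markers lower and 4 higher. For excitatory markers (12 of 12) it was 199731 to 201145 with morphine against 217862 to 220129 with saline (3 lower), and for inhibitory markers (11 of 12) 33325 to 35666 with morphine against 31241 to 32146 with saline (4 higher and 1 lower). None of the measured markers of any list was at 0 in all libraries. The part of these shifts in the values below was not tested, and in bulk RNA fewer cells of a type and less RNA per cell cannot be told apart.

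The PSD-95 family differed among its members. DLG1 (ENSMMUG00000016585, SAP97, which traffics AMPA receptors) had 4099, 4300.4 and 4274 normalized counts in morphine libraries 1, 2 and 3, against 5454, 6463 and 5451 in saline libraries 1, 2 and 3. All morphine values were below all saline values, with saline library 2 standing highest. DLG1 fell by 0.45 ± 0.0856 (SE) on the log2 scale (limma adjusted p = 0.0187). The call was lost when morphine replicate 1, 2 or 3 was left out (limma adjusted p = 0.0625, 0.058 and 0.057). DLG4, which encodes PSD-95 itself, had 40929.9, 39527 and 38842 in morphine and 39178, 36076 and 38860.1 in saline libraries, groups that overlap (log2 fold change 0.06 ± 0.0579, limma adjusted p = 0.442). Its 95% interval ran from -0.08 to 0.21 on the log2 scale. DLG2 (PSD-93) had 11198, 11041 and 11296 in the morphine group and 12341, 12633 and 12390.5 in the saline group. These groups do not overlap and differed little in size, with a log2 fold change of -0.16 ± 0.0452 (limma adjusted p = 0.0565, edgeR adjusted p = 0.00336). DLG3 (SAP102), a partner of NMDA receptors, had 3436, 3546 and 3335 in morphine and 3342, 3359.8 and 3257 in saline libraries, with overlap.

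SAPAP proteins, which join PSD-95 to SHANK, gave no limma call: 0 of 3 passed, 1 higher and 1 lower at an unadjusted p under 0.05, and 1 rose and 1 fell in edgeR. DLGAP1 varied most of all members, with 2358, 1985 and 4328 normalized counts with morphine and 1763, 2094 and 1021 with saline. Morphine library 3 was far above the other two, saline library 3 far below its own, and the groups overlapped, so that the 95% interval of its log2 fold change of 0.81 ran from -0.22 to 1.83. DLGAP3 had 10224, 10250.4 and 9776 in morphine libraries, all below the 11597, 10729 and 11203 of saline libraries (log2 fold change -0.15 ± 0.0554, limma adjusted p = 0.106, edgeR adjusted p = 0.0187). DLGAP4 showed the opposite order, with 9728, 9919 and 10118 in morphine, all above the 9255, 8798 and 9135 of saline (log2 fold change 0.13 ± 0.0496, limma adjusted p = 0.109, edgeR adjusted p = 0.0175).

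The deeper layer of the density, made of SHANK and HOMER proteins, held 0 calls among 5 genes in limma, in edgeR and in DESeq2, with 1 lower at an unadjusted limma p under 0.05. SHANK1 was nearly level, with 19391, 19624 and 19628 normalized counts with morphine and 19827, 19081 and 19827 with saline. Its 95% interval, from -0.12 to 0.12 on the log2 scale, lay within a 1.5-fold change in either direction. SHANK3, whose loss in people causes Phelan-McDermid syndrome, had 10200.3, 10338 and 9506 in morphine and 10464, 9316 and 9882 in saline libraries. SHANK2 had 1476, 1436 and 1339 in the morphine group, all slightly above the 1318, 1300 and 1268 of the saline group (log2 fold change 0.13 ± 0.0585, limma adjusted p = 0.161). HOMER2, which ties SHANK to metabotropic glutamate receptors, had 900.2, 852 and 805 in morphine and 952, 1020.4 and 979 in saline libraries. The morphine values were all lower, with a log2 fold change of -0.21 ± 0.0645 that did not pass (limma adjusted p = 0.0679). HOMER3 had 1201, 1240.1 and 1074 with morphine against 1103, 817 and 1087 with saline, where library 2 was low. GPHN, the gephyrin gene, had 3662, 3186 and 3350.4 in morphine and 2097, 3138 and 2875 in saline libraries. Morphine values were all higher, saline library 1 was far below the other two, and the gene did not pass (log2 fold change 0.35 ± 0.168, limma adjusted p = 0.181).

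**Figure D3:**
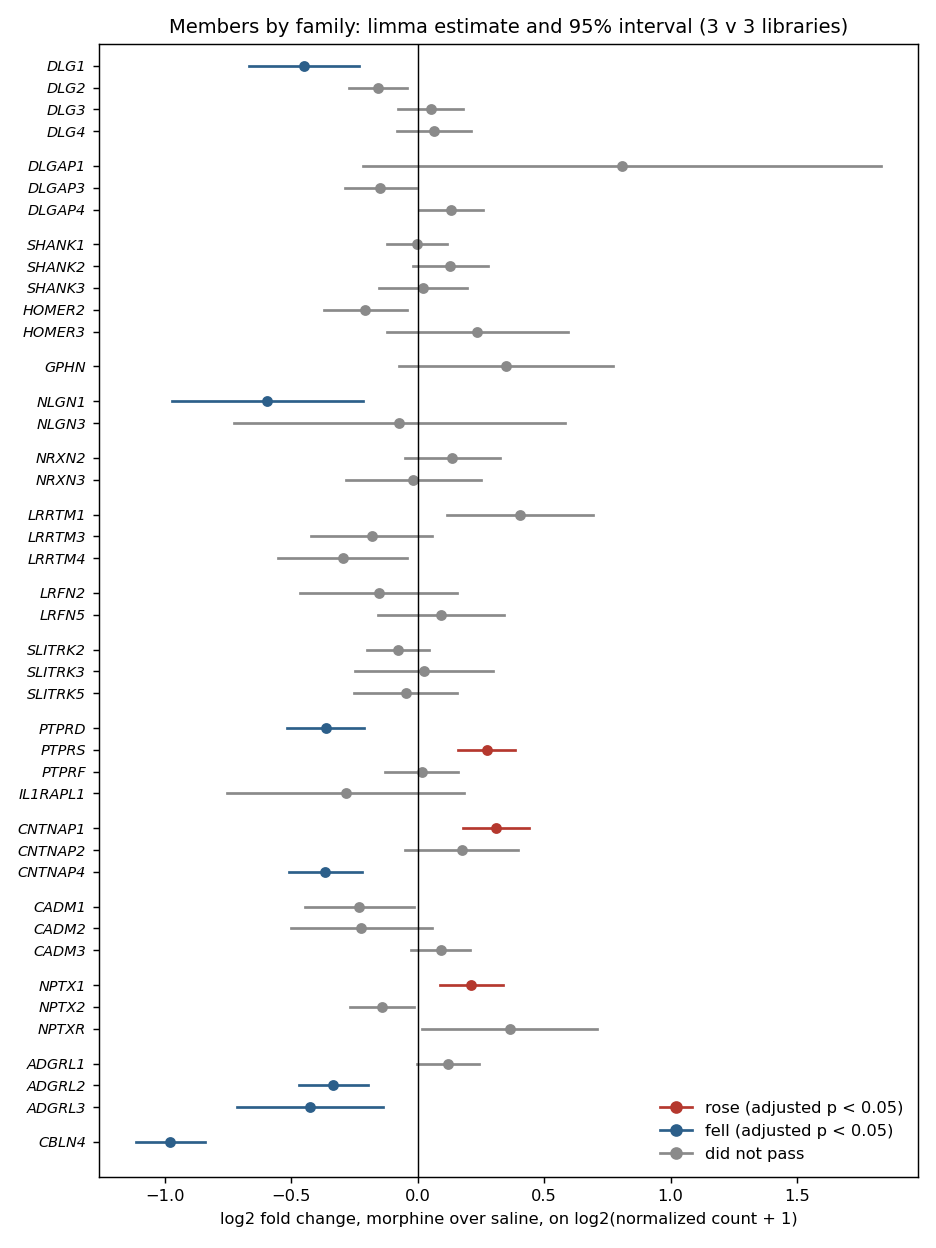
Log2 fold change of morphine over saline (x axis) with its 95% limma interval for the 42 members, grouped by family down the page; red rose, blue fell and grey did not pass. CBLN4 lies farthest below 0 at -0.98, DLGAP1 has the widest interval, and within the phosphatase and CASPR families called genes lie on both sides of 0.

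Among neurexin partners, NLGN1 (ENSMMUG00000004671), the neuroligin of excitatory synapses, had 424, 546 and 419.9 normalized counts in morphine libraries, against 609, 699.6 and 788 in saline libraries. Every morphine value was below every saline value, although the spread was wide in both groups. NLGN1 fell by 0.60 ± 0.149 (SE) on the log2 scale (limma adjusted p = 0.0385), and lost the call when morphine replicate 1 or 3 or saline replicate 2 or 3 was left out (limma adjusted p = 0.107, 0.107, 0.101 and 0.0954). NLGN3, present at excitatory and inhibitory synapses, had 3637, 3630.4 and 2001 in morphine and 3139, 2912 and 3371 in saline libraries. Morphine library 3 was low while the other two were above every saline library, and the log2 fold change of -0.07 became 0.21 without it (limma adjusted p = 0.853 and 0.161).

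Of the neurexins on the list, NRXN2 had 12762, 12464 and 12090.2 in morphine and 12298, 10522 and 11198 in saline libraries, and NRXN3 had 929.9, 1204 and 1019 with morphine against 1067, 1033 and 1074 with saline. Both overlapped between groups, and 0 of 2 passed in limma or edgeR (0 at an unadjusted limma p under 0.05), while NRXN2 rose in DESeq2 on the recovered reads. LRRTM proteins are postsynaptic and bind neurexins, LRRTM4 mainly through heparan sulfate chains. LRRTM1 had 1855, 1686 and 1794 in the morphine group, all above the 1231, 1571 and 1245 of the saline group, where library 2 was highest. Its log2 fold change of 0.41 ± 0.114 missed the threshold (limma adjusted p = 0.0521) and passed without saline replicate 2 (limma adjusted p = 0.0209) and in edgeR (adjusted p = 0.0162). LRRTM4 pointed the other way, with 273, 231 and 242 in morphine, all below the 309, 277 and 331 of saline (log2 fold change -0.30 ± 0.101, limma adjusted p = 0.0849). LRRTM3 had 442, 406 and 416 with morphine against 461, 439 and 539 with saline, with overlap.

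CBLN4 (ENSMMUG00000006005) showed the largest change of the called members. It encodes a secreted cerebellin that binds neurexins and, in mice, takes part in inhibitory input to dendrites. There were 1203, 1222 and 1279.8 normalized counts in morphine libraries 1, 2 and 3, against 2360.3, 2449.7 and 2497 in saline libraries 1, 2 and 3. The groups were far apart and each was tight, with 1235 ± 40.0 in morphine and 2436 ± 69.6 in saline (SD, n = 3 each). CBLN4 fell by 0.98 ± 0.0536 (SE) on the log2 scale (limma adjusted p = 0.0016) and passed in limma whichever library was left out (highest adjusted p = 0.0136).

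The LAR receptor phosphatases split. PTPRS (ENSMMUG00000011962), a presynaptic organizer that also binds proteoglycans, had 12753, 12702 and 12477 normalized counts with morphine and 10403, 10491 and 10504 with saline. PTPRD (ENSMMUG00000006952), a presynaptic partner of IL1RAPL1 and SLITRK3, had 2372, 2232 and 2300.2 in morphine and 2825, 2954 and 3112 in saline libraries. In neither gene did the groups overlap: PTPRS rose by 0.27 ± 0.0445 (SE) on the log2 scale (limma adjusted p = 0.0126) and PTPRD fell by 0.36 ± 0.0601 (limma adjusted p = 0.013). Both passed whichever library was left out. PTPRF, the founding LAR gene, had 7623, 7035 and 7239.9 in morphine and 7049, 7481 and 7133 in saline libraries, with overlap and a 95% interval from -0.13 to 0.16 on the log2 scale. IL1RAPL1 had the lowest counts of the members, at 55.3, 59.9 and 51.9 with morphine against 55.3, 64.1 and 88.6 with saline, where library 3 was highest (log2 fold change -0.29 ± 0.185, limma adjusted p = 0.302).

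SLITRK proteins, postsynaptic ligands of these phosphatases, and LRFN proteins, adhesion molecules of the postsynaptic side, gave 0 calls among 3 and 2 genes in limma and in edgeR, and 0 at an unadjusted limma p under 0.05. SLITRK2 had 5297, 4991 and 5199 in morphine, all slightly below the 5459, 5444 and 5434 of saline (log2 fold change -0.08 ± 0.0488, limma adjusted p = 0.289). SLITRK3, the family member of inhibitory synapses, had 842, 787 and 909.9 in morphine and 931, 833 and 739 in saline libraries, and SLITRK5 had 1539, 1442 and 1714 with morphine against 1592, 1671 and 1581 with saline. These groups overlapped. LRFN2 had 241, 225 and 299.8 with morphine against 288, 266 and 294 with saline, and LRFN5 had 1410.3, 1262 and 1459.5 with morphine against 1154, 1358 and 1367 with saline, also with overlap.

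CASPR proteins, relatives of neurexins that mostly act along axons, also moved in both directions. CNTNAP1 (ENSMMUG00000006091), which anchors myelin loops beside the node of Ranvier, had 6078, 6546 and 6315 normalized counts in morphine, all above the 5089.6, 5068 and 5120.1 of saline. It rose by 0.31 ± 0.0513 (SE) on the log2 scale (limma adjusted p = 0.0131). CNTNAP4 (ENSMMUG00000003916), which in mice acts in interneurons and dopaminergic neurons, had 404, 383 and 399.7 in morphine, all below the 497, 497 and 536 of saline. It fell by 0.37 ± 0.0572 (SE) on the log2 scale (limma adjusted p = 0.0112). Both calls held whichever library was left out. CNTNAP2, which clusters potassium channels beside the nodal region, had 777, 914 and 817 with morphine against 727, 699 and 796 with saline (log2 fold change 0.17 ± 0.0889, limma adjusted p = 0.205). In the same libraries 3 of 8 oligodendrocyte markers rose and 3 fell, and their part in the CNTNAP1 value was not tested.

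SynCAM proteins are adhesion molecules of the immunoglobulin family that bind each other across the cleft, and 0 of 3 passed in limma (1 lower at an unadjusted p under 0.05), while 1 rose in edgeR. CADM1 had 945, 879 and 909.9 in morphine, all below the 1179, 975 and 1062 of saline (log2 fold change -0.23 ± 0.0856, limma adjusted p = 0.104). CADM2 had 755, 831 and 862 with morphine against 858, 920.1 and 1088 with saline, with overlap. CADM3 had 11548, 11295 and 11429 in morphine, all above the 10853, 10496 and 10843 of saline (log2 fold change 0.09 ± 0.0463, limma adjusted p = 0.204, edgeR adjusted p = 0.0415).

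Neuronal pentraxins are secreted or membrane-bound proteins that gather AMPA receptors. The 3 genes all had groups that did not overlap, as did 48.7% of all genes tested, and 1 of them passed in limma. NPTX1 (ENSMMUG00000001286) had 8463, 8456 and 8884 normalized counts with morphine and 7399, 7522 and 7349.5 with saline. NPTX1 rose by 0.21 ± 0.0489 (SE) on the log2 scale (limma adjusted p = 0.0308). With any 1 library left out it no longer passed, at a limma adjusted p of 0.0745, 0.0777 and 0.0909 without morphine replicate 1, 2 and 3 and of 0.0806, 0.0697 and 0.0848 without saline replicate 1, 2 and 3. NPTX2, which neuronal activity induces, had 1666, 1664 and 1645 in morphine, all below the 1769, 1833 and 1888 of saline. Its difference was -0.14 ± 0.0497 on the log2 scale and did not pass (limma adjusted p = 0.0919). NPTXR, the membrane-bound receptor form, had 22615, 31152 and 30143 in morphine and 22310, 21086 and 21178 in saline libraries. Morphine library 1 lay close to the saline values and the other two far above them (log2 fold change 0.36 ± 0.137, limma adjusted p = 0.108), and without morphine replicate 1 the gene rose by 0.51 (limma adjusted p = 0.0214).

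Latrophilins are adhesion receptors coupled to G proteins that bind teneurins and FLRT proteins. ADGRL2 (ENSMMUG00000002516) had 1603, 1653 and 1667 normalized counts in morphine, all below the 1990.2, 2146 and 2072 of saline. ADGRL3 (ENSMMUG00000002588), a gene associated with attention deficit hyperactivity disorder in people, had 921, 855 and 772 in morphine, all below the 1011, 1146 and 1273 of saline, with a wider spread. ADGRL2 fell by 0.33 ± 0.0535 (SE) on the log2 scale (limma adjusted p = 0.012), whichever library was left out. ADGRL3 fell by 0.43 ± 0.114 (limma adjusted p = 0.0463), but its call was lost when morphine replicate 1, 2 or 3 (limma adjusted p = 0.0703, 0.113 and 0.118) or saline replicate 2 or 3 (limma adjusted p = 0.115 and 0.103) was left out. ADGRL1, a receptor of the spider toxin alpha-latrotoxin, had 26032, 25205 and 24582 in morphine, all above the 23397, 23062 and 23259 of saline. Its log2 fold change of 0.12 ± 0.0485 did not pass in limma (adjusted p = 0.125) and did in edgeR (adjusted p = 0.00793).

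Where paralogs lay on opposite sides, the ratio of their normalized counts within a library does not depend on the scaling between libraries. The pairs were chosen after their values had been seen, and the ratios are given as a description with no test. PTPRS over PTPRD was 5.38, 5.69 and 5.42 in morphine libraries 1, 2 and 3, against 3.68, 3.55 and 3.38 in saline libraries 1, 2 and 3. CNTNAP1 over CNTNAP4 was 15.1, 17.1 and 15.8 in morphine and 10.2, 10.2 and 9.56 in saline libraries. In both pairs every morphine ratio exceeded every saline ratio. That order follows from the values already given, as 1 gene of each pair was higher and the other lower in every morphine library. It adds no evidence to them, and the same holds for the latrophilin and pentraxin pairs below. ADGRL1 over ADGRL2 was 16.2, 15.2 and 14.8 in morphine, against 11.8, 10.8 and 11.2 in saline, and ADGRL1 over ADGRL3 was 28.2, 29.5 and 31.9 with morphine against 23.1, 20.1 and 18.3 with saline. NPTX1 over NPTX2 was 5.08, 5.08 and 5.40 in morphine and 4.18, 4.10 and 3.89 in saline libraries. DLG4 over DLG1 was 9.98, 9.19 and 9.09 with morphine against 7.18, 5.58 and 7.13 with saline, with saline library 2 lowest. The DLG4 groups overlapped, and this order too follows from the values already given, through the lower DLG1 in morphine libraries.

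**Figure D4:**
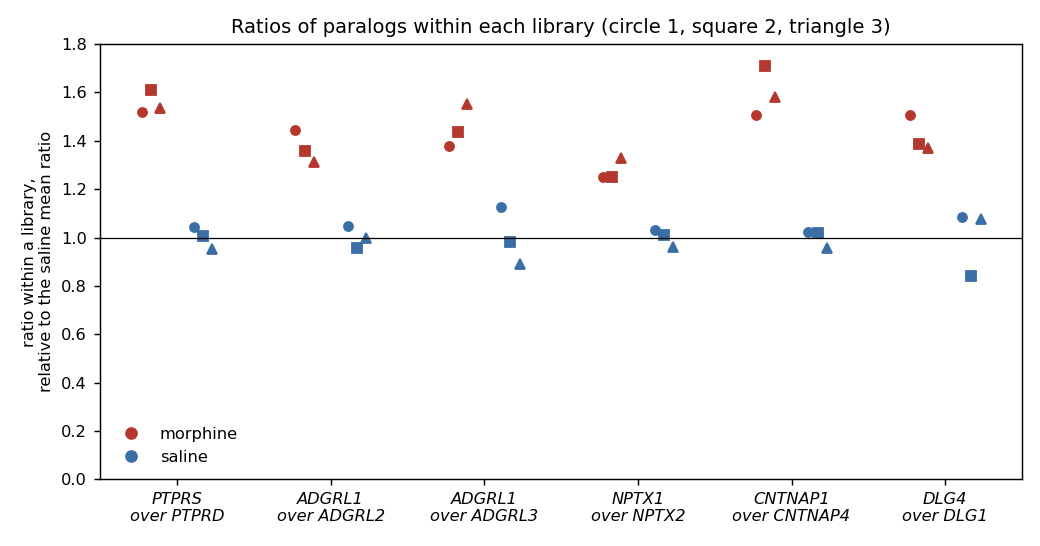
Ratio of the normalized counts of 2 paralogs within each library, divided by the mean ratio of the saline libraries (y axis, from 0), for 6 pairs (x axis) in morphine (red, left) and saline (blue, right) libraries 1 to 3. In all 6 pairs the 3 morphine ratios lie above the 3 saline ratios, with mean ratios 1.28 to 1.60 times those of saline. In every pair this order follows from the 2 genes' own values and adds no evidence to them. The groups of both genes did not overlap and differed in opposite directions, except in DLG4 over DLG1, where the DLG4 groups overlapped.

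Spread within a group differed among the members, and its part in which members passed was not tested. The median coefficient of variation of the members was 4.27% in morphine and 4.42% in saline libraries, and 8 members exceeded 15% in either group, a limit set after the values had been seen. Morphine library 3 stood apart in DLGAP1 and NLGN3, upward in DLGAP1 and downward in NLGN3, and morphine library 1 in NPTXR. Of the 32 members that did not pass, 25 had a 95% interval that lay wholly within a 1.5-fold change in either direction.

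**Figure D5:**
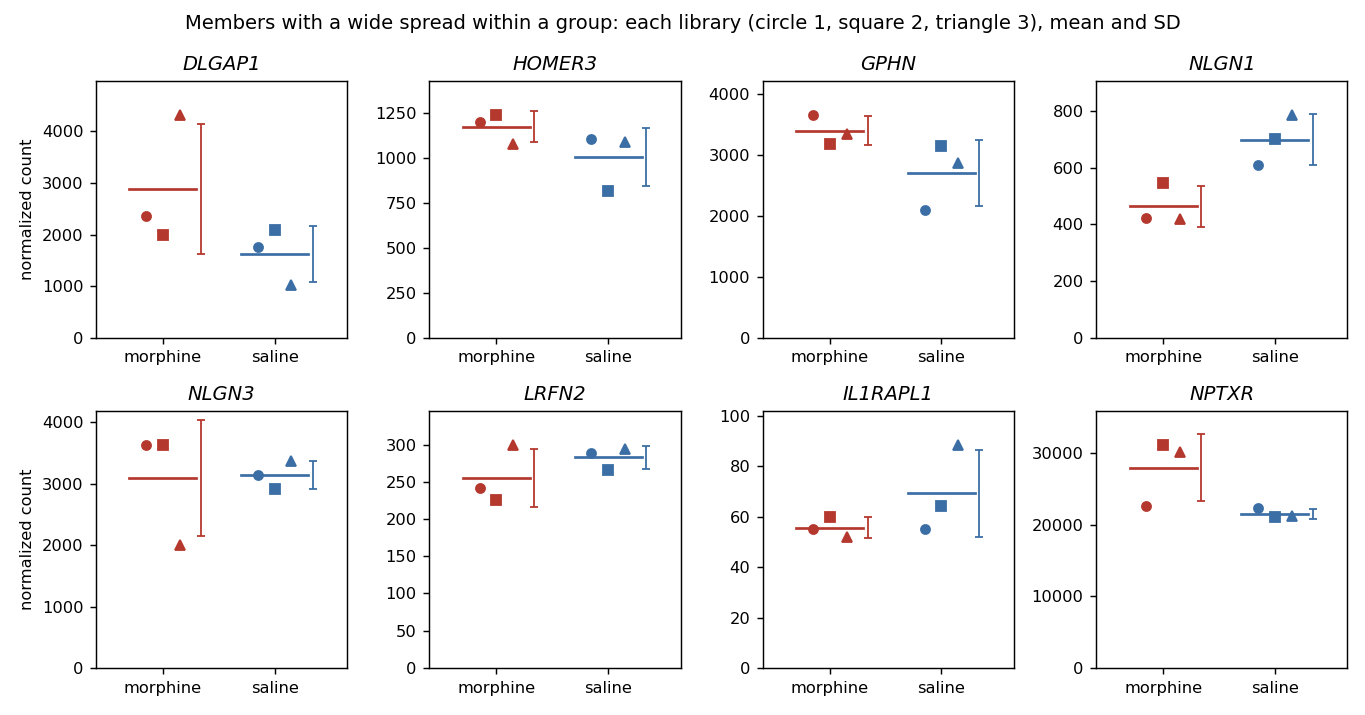
Normalized counts (y axes, from 0) of the 8 members with a coefficient of variation over 15% in either group, in morphine (red, left) and saline (blue, right) libraries; marks are libraries 1 to 3, horizontal lines are means and bars at the side are SD. NLGN1 is the 1 gene here that passed the limma test; in DLGAP1, NLGN3 and NPTXR single morphine libraries stand apart from the rest of their group.

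A wider list of 107 other scaffold and adhesion genes of the synapse, of which 102 were tested, had 18 rises and 24 falls (41.2%, against 27.9% of all genes tested), a difference in share that was not tested. The list was chosen with earlier results of these data known, and 78 of the 102 genes lay above the median level of all tested genes. Over all genes the share called was higher at high levels (37.3% between 1000 and 5000 normalized counts and 42.0% over 5000). No comparison at matched level was made for this list. Among the falls with the smallest adjusted p were CBLN2, SPARCL1, CNTN6, PSD3 and TNIK. CBLN2, a cerebellin related to CBLN4, had 1691, 1669.5 and 1632 normalized counts with morphine against 3279, 3182 and 3102 with saline. SPARCL1, an astrocyte-secreted protein that in mice promotes the formation of excitatory synapses, had 88378, 87588 and 87876 with morphine against 143256, 146392 and 143281 with saline. In both genes the groups were far apart: CBLN2 fell by 0.94 ± 0.0497 and SPARCL1 by 0.71 ± 0.0446 (SE) on the log2 scale (limma adjusted p = 0.0016 and 0.00194). The SPARCL1 value stands in libraries where 6 of 11 astrocyte markers fell and 1 rose. PSD3 (an exchange factor of ARF6) fell by 1.02 ± 0.0805, CNTN6 (a contactin) by 0.92 ± 0.0663 and TNIK (a kinase of the postsynaptic density) by 0.58 ± 0.0538. The 6 rises with the smallest adjusted p were in C1QL2, LRFN4, DBN1, CNTN2, MDGA1 and GRIP2. C1QL2, a secreted C1q-like protein that in mice recruits kainate receptors, rose by 0.61 ± 0.0548 (SE) on the log2 scale, with 3445, 3288 and 3550.3 normalized counts in morphine against 2303, 2222 and 2196 in saline. GRIP2, an anchor of AMPA receptors, rose by 0.51 ± 0.0839, LRFN4 by 0.46 ± 0.0597 and MDGA1, which blocks neuroligins from binding neurexins, by 0.42 ± 0.0697. CNTN2, the axonal partner of CNTNAP2, rose by 0.33 ± 0.0516 and the spine actin binder DBN1 by 0.32 ± 0.0489. These rises and falls all passed in limma whichever library was left out, while over the 102 genes 6 to 9 rose and 11 to 16 fell without 1 library. CBLN1, HOMER1 and NLGN4X, relatives of members and named after their values had been seen, did not pass (log2 fold change -0.47 ± 0.140, 0.14 ± 0.0726 and -0.21 ± 0.109; limma adjusted p = 0.061, 0.197 and 0.201).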

How the data were processed

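The members and gene lists were chosen with earlier results of these data known. Every member with a row is named. Of the other scaffold and adhesion genes up to 6 called per direction with the smallest adjusted p are named, and of each marker list at most the 2 with the highest mean. Cell type markers are described as lists. A few genes chosen this way are left out here. Exceptions to these rules, named after their values had been seen, are CBLN1, HOMER1 and NLGN4X and the vascular markers COL1A1, COL1A2 and ACTA2.

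Tools named in the submitters' processing notes are StringTie, Bowtie2 (2.1.0) and DESeq2 (1.18.1), beside the human build hg19, although the table lists rhesus Ensembl identifiers. The annotation behind the counts and the use of strand are not given in the sources. Reads of overlapping or antisense genes therefore cannot be told apart. The deposited table of 23191 genes holds, per the file headers and its values, a signal per library (reads divided by a size factor), and from the authors' comparison log2 fold changes, a test score and p-values. A second deposited table of 2332 genes repeats rows of the first with identical values. Symbols came from a table of gene names and matched 15436 identifiers (66.6%). In each library 100% of values were whole multiples of the worth of 1 read within 0.001, so reads were recovered.

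Differences were tested in R 4.3.3 by limma (version 3.58.1), with group as the only term and no trend, on log2(value + 1), on the 16595 genes with a mean of 10 or more. P-values are two-sided with Benjamini-Hochberg adjustment over these genes, and a call is an adjusted p under 0.05. Fold changes on this scale understate the change of low genes. Libraries of a group differed by more than sampling noise (mean chi-square per gene 17.5 to 23.8). Alternatives were TMM and upper-quartile scaling, no filter or a minimum of 50, pseudocounts of 0.5 and 5, a trend, edgeR 4.0.16 and DESeq2 1.42.0 on the recovered reads, the authors' deposited comparison, the replicate number as a block, and each library left out. Figures were drawn with matplotlib 3.10.9.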

Additional observations from a re-analysis of the deposited data

How the results depend on the processing

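With TMM or upper-quartile scaling, no filter, a minimum of 50 or other pseudocounts, 2 to 4 members rose and 5 to 9 fell. Of all 16595 genes, 2153 rose and 2480 fell with TMM, and 2285 and 2367 with upper-quartile scaling. Pseudocounts of 0.5 and 5 gave 2124 and 2210 rises, with 2479 and 2535 falls. With no filter 1363 of 23191 genes rose and 1630 fell, and with a minimum of 50 it was 2319 and 2707 of 14024. More rose with an intensity trend in limma (8), in edgeR (8), in DESeq2 (9) and in the authors' deposited table (9), where 9 fell in each. Without 1 library 2 or 3 members rose and 4 to 7 fell; without morphine replicate 1 or 3 there were 4 falls. Of the other scaffold and adhesion genes 6 to 9 rose and 11 to 16 fell without 1 library, and 6 rose and 12 fell with no filter. Without 1 library 2536 to 3181 of all genes changed, and 2993 with no filter. The causes of these differences between settings were not tested.

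Over all tested genes, the deviations of same-numbered libraries from their group means were nearly uncorrelated (-0.0563, -0.00392 and -0.0284). A correlation over all genes cannot show whether the numbers pair libraries in some genes. With the replicate number as a block 0 members rose and 1, CBLN4, fell in limma (4 higher and 9 lower at an unadjusted p under 0.05), 3 other scaffold and adhesion genes rose and 9 fell, and 1577 of all genes changed. The share of all genes at that unadjusted p was not counted, so these unadjusted counts are no result about the members.

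Under these alternatives signs turned only in members that did not pass. As log2 fold changes, SHANK1 was 0.013 with upper-quartile scaling. Without 1 library SHANK1 ranged from -0.020 to 0.0072, SHANK3 from -0.023 to 0.061, NLGN3 from -0.22 to 0.21, NRXN3 from -0.12 to 0.067, SLITRK3 from -0.060 to 0.11, SLITRK5 from -0.12 to 0.0091 and PTPRF from -0.017 to 0.041. Counting error weighs most on IL1RAPL1, the member with the lowest counts.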
